A study of Rattus norvegicus and Bos taurus with 12 samples.

Results

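Oxidative phosphorylation is the mitochondrial process that turns the energy of fuel electrons into ATP, and the adult heart depends on it for most of its work. Electrons enter through complex I (NADH dehydrogenase) or complex II (succinate dehydrogenase), pass through complex III and cytochrome c, and reach oxygen at complex IV (cytochrome c oxidase). The proton gradient built on the way drives ATP synthase (complex V). Most subunits are encoded in the nucleus, a few in mitochondrial DNA, and several complex IV subunits exist as tissue isoforms, of which striated muscle has its own.

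The genes were taken from the tables of adult rat ventricular myocytes (ARVM) and bovine cardiac fibroblasts (Cfib) by symbol. Symbols that start with Nduf, Uqcr, Atp5, Cox4 to Cox8, Cox10 to Cox19 or Sdh followed by a, b, c or d were taken, in any case, together with Cyc1 and Cycs. This gave 90 of the 7052 genes listed for ARVM and 2 of the 2115 listed for Cfib. Of the 90 rat genes, 76 encode subunits or cytochrome c, and 14 encode assembly factors or related proteins.

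RNA sequencing covered 12 libraries in 4 groups of 3. Freshly isolated ARVM were compared with ARVM kept for 7 days in PH-CM, the medium conditioned by Cfib from calves with pulmonary hypertension (PH). All ARVM came from healthy adult Sprague Dawley rats by collagenase perfusion, and no genetic change or transgene was involved. The Cfib groups were low-passage cultures from the right ventricular free wall of control (CO) calves at Denver altitude and of neonatal calves made hypertensive by reduced atmospheric pressure. The labels enter as treatment the serum of cows from either altitude, and do so for the freshly isolated ARVM too. The ARVM groups differ in time in culture as well as in medium, and the effects of both cannot be told apart. The Cfib libraries came from 3 animals in each group. For ARVM the labels do not say which libraries share an animal or preparation, so p-values there measure the spread between these libraries, which may be partly technical.

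The values of the 3 libraries of a group are given in 1 order throughout. The ARVM values are normalized counts, that is reads divided by a size factor for each library, and between 12122463 and 18842171 reads fell on listed genes per library. The Cfib values are scaled by gene length and library in a unit that the sources used here do not name, and their depth is unknown. Both tables hold only genes that the authors had selected for a difference between the groups. In 7052 of 7052 ARVM genes and 2115 of 2115 Cfib genes the groups did not overlap, so the direction, size and pattern of a change carry information here, while the fact that a listed gene differed does not. A gene that is not listed gives no information on its level. In bulk RNA, fewer cells of a type and less RNA per cell cannot be told apart.

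In ARVM, nearly all listed genes of the respiratory chain and ATP synthase were lower after PH-CM. Of the 90 genes, 86 were called lower and 4 higher (limma on log2(value + 1), Benjamini-Hochberg adjusted p under 0.05 over all listed genes). Over all listed genes 43.7% were called lower and 53.9% higher. The median log2 fold change, PH-CM minus freshly isolated, was −1.98 for the 90 genes and 0.37 for all listed genes. A fall of at least 1 on the log2 scale was called for 77 of the 90, against 16.0% of all listed genes, and a fall of at least 2 for 44, against 5.74%. In the 3 freshly isolated libraries the 76 subunit and cytochrome c genes took between 13.7% and 14.1% of the normalized counts of all listed genes, and in the 3 PH-CM libraries between 3.87% and 4.37%. The listed genes are a part of each library, so these are shares of the listed counts only.

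**Figure D1:**
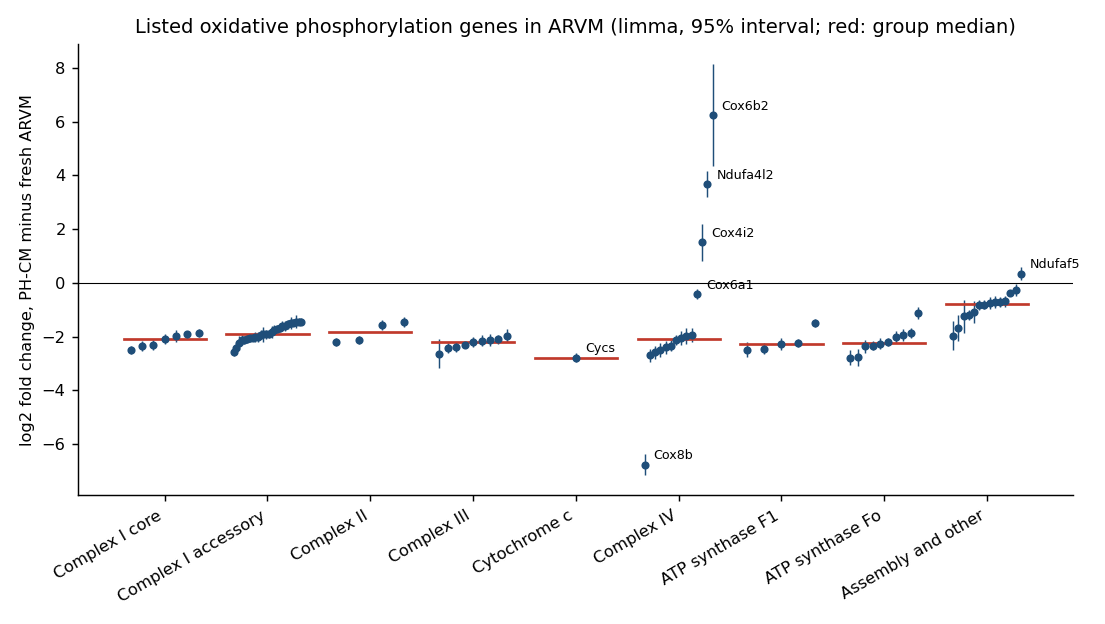
Points are log2 fold changes of the 90 listed oxidative phosphorylation genes in ARVM (PH-CM minus freshly isolated, 3 libraries each, vertical lines 95% intervals from limma), ordered by size within each complex, and red lines are group medians. Most subunits lie in a band near −2, while Cox8b lies far below it at −6.76, and Cox4i2, Ndufa4l2 and Cox6b2 lie above 0.

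Most subunits of every complex fell, and the differences between complexes were not tested. The median log2 fold change was −1.91 for the 33 complex I subunits, −1.85 for the 4 of complex II, −2.20 for the 9 of complex III, −2.10 for the 14 of complex IV and −2.26 for the 15 of ATP synthase. Leaving aside Cox8b, Cox6a1 and the 3 subunit genes that were higher, the other 71 genes fell by 2.16-fold to 6.92-fold. The SD of their log2 fold changes was 0.37, larger than the median standard error of 0.08 for a single gene. Selection for a difference between groups may favour small standard errors, and the genes left aside were chosen after their values were seen. The summed counts of each complex showed the same picture library by library. Complex I subunits took 2.74% to 2.80% of the listed counts in freshly isolated ARVM and 0.916% to 1.004% in PH-CM ARVM. Complex IV went from between 4.18% and 4.45% to between 1.09% and 1.26%, and ATP synthase from between 4.83% and 4.89% to between 1.29% and 1.48%. The counts are not divided by gene length, so only the change of a share between groups, and not its rank among complexes, can be read.

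**Figure D2:**
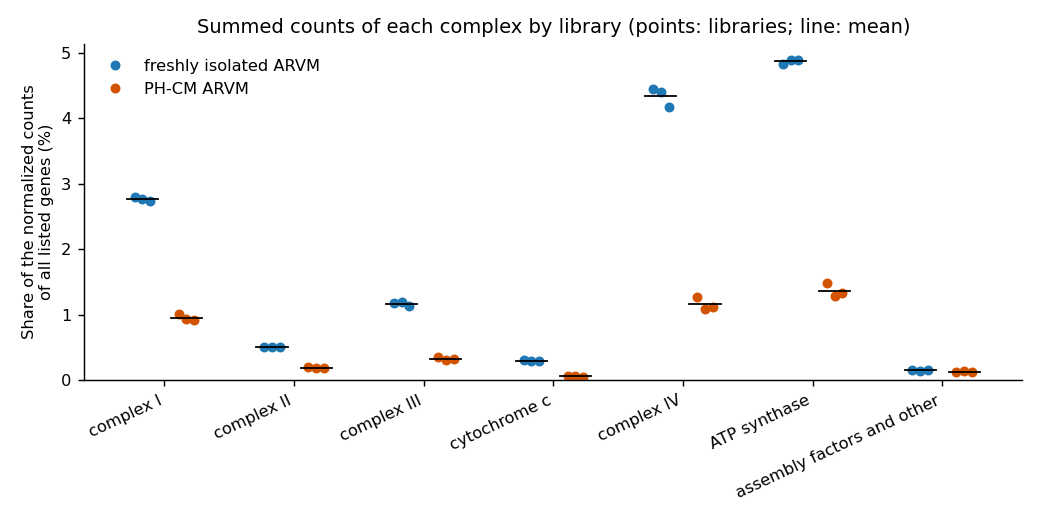
Each point is a library, and its height is the share (%) of the normalized counts of all listed ARVM genes that fell on the subunits of a complex, on cytochrome c, or on assembly factors and related genes, with lines for group means of 3 libraries. For every complex the freshly isolated libraries lie above the PH-CM libraries, and so they do, by less, for the assembly genes (0.144% to 0.156% against 0.119% to 0.139%).

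Complex I is the largest of the chain and takes electrons from NADH. All 33 of its listed subunit genes were called lower, 7 core subunits, which carry the redox centres, and 26 accessory subunits, which surround and stabilise them. The median log2 fold change was −2.10 for core and −1.90 for accessory subunits. Ndufv3, an accessory subunit of the NADH-oxidising module, had 19512, 18848 and 17397 normalized counts in freshly isolated ARVM and 3392, 3072 and 2965 in PH-CM ARVM. This was the largest fall in the complex (log2 fold change −2.56, standard error 0.07, adjusted p = 1.12e-07 from limma). Ndufv1, which binds NADH and its flavin cofactor, had 35660, 36208 and 38199 against 6753, 6509 and 6247. Its log2 fold change was −2.50, with a standard error of 0.06 and an adjusted p of 1.01e-07 from limma. The accessory subunit Ndufa9 had 12480, 12567 and 11406 against 2444, 2081 and 2302. In each of these genes the lowest freshly isolated library stood several times above the highest PH-CM library.

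Within the core, the 3 genes of the NADH-oxidising module had the 3 largest falls. Beside Ndufv1 these were Ndufv2 (−2.36) and Ndufs1 (−2.30), both iron-sulfur proteins. Ndufs7, Ndufs3 and Ndufs8, which lie on the way to ubiquinone, had log2 fold changes of −2.10, −1.97 and −1.91. This grouping covers core subunits only, and accessory subunits other than Ndufv3 were not assigned to modules. It was made after the values were seen and was not tested. The smallest fall among the accessory subunits was that of Ndufa8, from 3755, 3498 and 3500 to 1298, 1347 and 1318, a log2 fold change of −1.44. Ndufa10 and Ndufa10l1 (−2.08 and −1.89) are close copies that may share reads, so their separate values are uncertain. RefSeq also names a pseudogene after 40 of the 90 genes, and how reads that fit several places were counted is not given in the sources used here.

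Complex II links the citric acid cycle to the chain and is the only complex of the chain whose subunits are all nuclear encoded. Its 4 genes were listed and all were called lower. Sdhb, the iron-sulfur subunit, had 16820, 16443 and 16085 normalized counts in freshly isolated ARVM and 3781, 3705 and 3285 in PH-CM ARVM (log2 fold change −2.20). Sdha, the flavoprotein that oxidises succinate, had 39595, 37939 and 37907 against 9203, 9084 and 8440 (−2.11). The membrane anchors Sdhd and Sdhc fell less. Sdhd had 22071, 22059 and 19988 against 7840, 6925 and 6715 (log2 fold change −1.58, 95% interval −1.76 to −1.40), and Sdhc had a log2 fold change of −1.46 with an interval of −1.63 to −1.28. Neither interval overlaps those of Sdhb, −2.35 to −2.04, and Sdha, −2.26 to −1.96, and the difference itself was not tested.

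Complex III passes electrons from ubiquinol to cytochrome c, the mobile carrier between complexes III and IV. All 9 complex III genes were called lower, 8 of them by at least 2 on the log2 scale. Uqcr10, a small subunit, had 30965, 31037 and 19467 normalized counts in freshly isolated ARVM and 5543, 3246 and 4364 in PH-CM ARVM (log2 fold change −2.63, standard error 0.23). The third freshly isolated library was well below the other freshly isolated libraries for this gene. The groups did not overlap, which holds for every listed gene. Cyc1, the haem-bearing cytochrome c1, had 22118, 23282 and 22755 against 4770, 3874 and 4169 (−2.42). Uqcrc2, a core protein of the complex, had 41649, 36455 and 34736 against 7441, 7325 and 6743 (−2.39). Uqcrfs1, the Rieske iron-sulfur protein, had a log2 fold change of −2.32, and Uqcr11, Uqcrc1, Uqcrb, Uqcrq and Uqcrh ran from −2.20 to −1.96. Cycs, cytochrome c itself, had 59125, 55834 and 54167 against 8455, 8389 and 7603. It fell 6.92-fold (log2 fold change −2.79, standard error 0.07, adjusted p = 1.04e-07 from limma), the largest fall among the 71 genes of the common range.

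Complex IV held the exceptions. Of its 14 listed genes, 11 were called lower and 3 higher, and its log2 fold changes ran from −6.76 to 6.25. Most fell within the common range. Cox7b, a small structural subunit, had 88072, 84433 and 82305 normalized counts in freshly isolated ARVM and 14805, 11847 and 12697 in PH-CM ARVM (−2.70). Cox7a2, the counterpart in other tissues of the heart isoform Cox7a1, had 69045, 64444 and 62898 against 12968, 9860 and 11891 (−2.51). Its fall was larger than that of the muscle isoform Cox6a2 (−1.98), and Cox7a1 is not listed. Cox7c, Cox6c, Cox5b and Cox5a had log2 fold changes of −2.41, −2.34, −2.06 and −1.94.

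Cox8b, the isoform of subunit VIII that is characteristic of heart and skeletal muscle, stood apart from every other gene of the chain. It had 91109, 85629 and 70955 normalized counts in freshly isolated ARVM and 875, 581 and 845 in PH-CM ARVM. This is a 109-fold fall (log2 fold change −6.76, standard error 0.16, adjusted p = 9.84e-08 from limma), and only 10 of the 7052 listed genes fell further. With each library left out in turn the log2 fold change stayed between −6.87 and −6.58. Its ubiquitous counterpart Cox8a is not listed, so the ratio of the isoforms could not be formed.

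Subunit VIa also has a heart and muscle isoform, Cox6a2, and an isoform found in other tissues, Cox6a1, and both are listed. Cox6a2 had 175528, 174065 and 154935 normalized counts in freshly isolated ARVM and 48099, 38010 and 42364 in PH-CM ARVM, a log2 fold change of −1.98. Cox6a1 had 15978, 17492 and 16566 against 13995, 11662 and 11973, a log2 fold change of only −0.41 (standard error 0.08, adjusted p = 0.00203 from limma). Cox6a2 made up 91.7%, 90.9% and 90.3% of the counts of the pair in freshly isolated ARVM and 77.5%, 76.5% and 78.0% in PH-CM ARVM. The log2 ratio of Cox6a2 to Cox6a1 was 3.33 ± 0.12 (SD, n = 3) before and 1.77 ± 0.06 after, a difference of −1.56 (exact two-sided permutation test, p = 0.1, the smallest that 3 against 3 libraries can give). Cox6a2 still gave most of the counts of the pair in every PH-CM library.

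Subunit IV has a general isoform, Cox4i1, and an isoform best known from lung and from cells short of oxygen, Cox4i2. Cox4i1 had 55879, 60308 and 57899 normalized counts in freshly isolated ARVM and 13898, 13233 and 12673 in PH-CM ARVM (−2.13). Cox4i2 moved the other way, from 50.6, 35.3 and 32.0 to 88.5, 139.8 and 113 (log2 fold change 1.51, standard error 0.29, adjusted p = 0.00165 from limma). Every PH-CM library lay above every freshly isolated one, but the groups did not overlap in any of the 7052 listed genes. After PH-CM, Cox4i2 still made up only 0.633% to 1.05% of the counts of the pair, from 0.0553% to 0.0905% before. The log2 ratio of Cox4i2 to Cox4i1 rose by 3.64, from −10.52 ± 0.38 to −6.88 ± 0.37 (SD, n = 3, exact two-sided permutation test, p = 0.1). Since both genes are listed and moved in opposite directions, this p was fixed in advance.

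Ndufa4, once counted with complex I and now placed in complex IV, and its relative Ndufa4l2, a gene known to be induced in hypoxia and to restrain respiration, gave the same opposition. Ndufa4 had 98671, 86494 and 86185 normalized counts in freshly isolated ARVM and 16645, 13734 and 14748 in PH-CM ARVM (−2.59). Ndufa4l2 had 47.5, 49.3 and 54.8 against 496, 792 and 713 (log2 fold change 3.67, standard error 0.21, adjusted p = 2.58e-06 from limma). Its share of the pair's counts went from between 0.0481% and 0.0635% to between 2.89% and 5.45%. The log2 ratio of Ndufa4l2 to Ndufa4 rose by 6.26, from −10.78 ± 0.20 to −4.52 ± 0.49 (SD, n = 3; exact two-sided permutation test, p = 0.1). These were 3 ratios out of 6 isoform pairs considered, and in the other 3 the partner (Cox7a1, Cox8a or Cox6b1) is not listed. All 3 share the p of 0.1 at which the design ends, and Benjamini-Hochberg adjustment leaves it at 0.1. In the Cox4i2 and Ndufa4l2 pairs the genes moved in opposite directions. Because listed genes do not overlap between groups, the p of these pairs was fixed in advance and carries no information.

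Cox6b2, an isoform of subunit VIb known from testis, had 0, 7.50 and 0 normalized counts in freshly isolated ARVM, the middle value standing for 7 reads, and 138, 133 and 199.7 in PH-CM ARVM. Its log2 fold change was 6.25 on the log2(value + 1) scale (standard error 0.81, adjusted p = 0.000195 from limma). The size depends on the constant added to so few reads, being 8.51 with 0.1 and 3.77 with 10, and the adjusted p lay between 1.22e-06 and 0.00264 over the alternatives tried. Because the groups do not overlap, the direction could not change with another constant or a library left out. Rescaling and the count models (edgeR, DESeq2) left it unchanged.

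**Figure D3:**
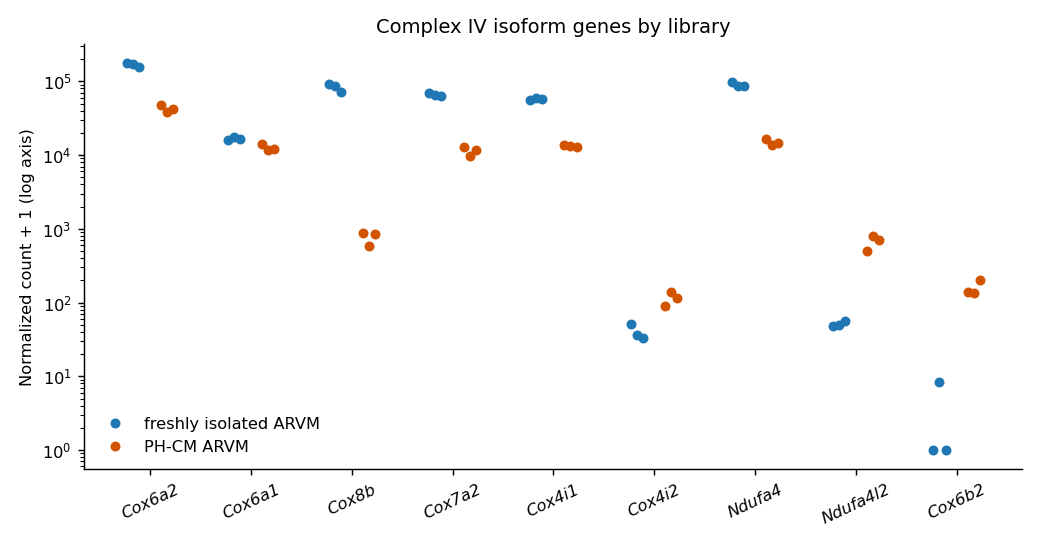
Normalized counts plus 1 on a log axis for 9 complex IV genes in the 3 freshly isolated and 3 PH-CM ARVM libraries, each point a library. Cox8b drops from at least 70955 to at most 875 and Cox6a1 changes little (log2 fold change −0.41), while Cox4i2, Ndufa4l2 and Cox6b2 rise from low levels, Ndufa4l2 to between 496 and 792.

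ATP synthase consists of the catalytic F1 head and the membrane-bound Fo rotor and stalk. All 15 listed subunit genes were called lower, with medians of −2.27 for the 5 F1 genes and −2.23 for the 10 Fo genes. Atp5b, the catalytic beta subunit, had 189667, 213899 and 216636 normalized counts in freshly isolated ARVM and 40485, 34826 and 35185 in PH-CM ARVM (log2 fold change −2.49). Atp5i, the small subunit e that helps ATP synthase pair into dimers, had 86186, 81871 and 73749 against 13928, 9476 and 12254 (−2.78). Atp5d, the delta subunit of the central stalk, fell least in F1 (−1.50). The other F1 genes, Atp5a1, Atp5e and Atp5c1, had log2 fold changes of −2.46, −2.27 and −2.24, and the other Fo genes outside subunit c (Atp5l, Atp5j, Atp5f1, Atp5o, Atp5j2 and Atp5h) ran from −2.36 to −1.87.

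The genes of subunit c, the ring protein that carries the protons, did not move together. Atp5g1, Atp5g2 and Atp5g3 encode the same mature protein behind different import sequences. Atp5g1 had 39191, 38903 and 37253 normalized counts in freshly isolated ARVM and 6301, 4585 and 5982 in PH-CM ARVM, a log2 fold change of −2.79 (95% interval −3.06 to −2.52). Atp5g3 had 32467, 34259 and 34478 against 7318, 6145 and 6640 (−2.33, interval −2.51 to −2.16). Atp5g2 had 28849, 29216 and 26821 against 14312, 11466 and 13620, and its log2 fold change of −1.11 (interval −1.33 to −0.89) was the smallest fall among the ATP synthase subunits. Atp5g2 therefore went from 28.7%, 28.5% and 27.2% of the counts of the 3 genes to 51.2%, 51.7% and 51.9%, and Atp5g1 from between 37.8% and 39.0% to between 20.7% and 22.8%. This family was looked at after its values were seen, and its shares were not tested.

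**Figure D4:**
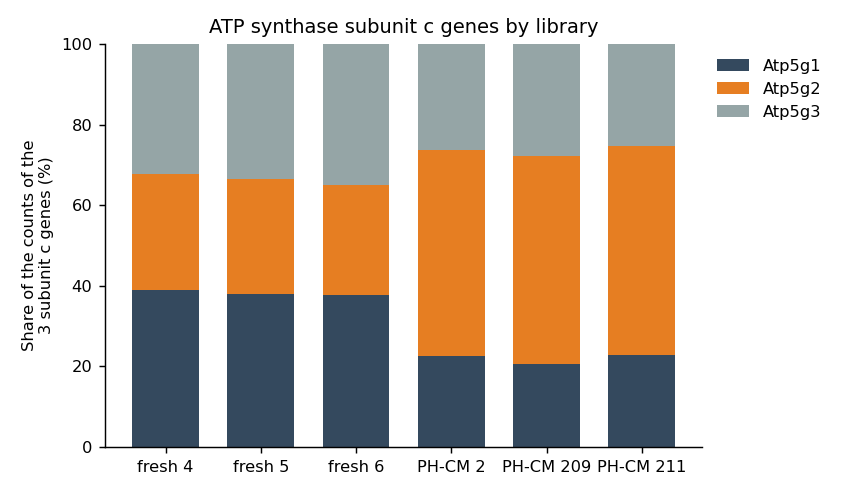
Bars give, for each ARVM library, the share (%) of the counts of Atp5g1, Atp5g2 and Atp5g3 taken by each gene. Atp5g2 takes 27.2% to 28.7% in the freshly isolated libraries and 51.2% to 51.9% in the PH-CM libraries.

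Promoter sequences were set beside these patterns. RefSeq (build GRCr8) holds all 90 rat genes, 73 under the symbol used here and 17 under a synonym, and gives a window of 250 bases before to 50 bases after the start for 77 of them. The windows shown are those of the genes at the extremes (Cox8b, Ndufa4l2 and Cox6b2), of the other muscle isoform (Cox6a2), and of members of the common fall (Cycs and Atp5g3). Capitals mark every match, on either strand, to the 6 motifs searched. Found in these stretches were CAGCTG, an E-box read by muscle factors, in Cox8b and Cox6a2, a MEF2 box, the longer run of capitals, in Cox6a2, GCATGCGC, the core of the nuclear respiratory factor NRF1 motif, in Cycs, and AAGGTCA, the motif of estrogen-related receptors, in Atp5g3, where it lies on the opposite strand. ACGTG, the core of the hypoxia response element, was found in Cox8b and, on the opposite strand, in Cycs. No match was found in the last pair. Each window runs 5′ to 3′ on the gene's strand.
Cox8b, chr1:205408274-205408393, minus strand: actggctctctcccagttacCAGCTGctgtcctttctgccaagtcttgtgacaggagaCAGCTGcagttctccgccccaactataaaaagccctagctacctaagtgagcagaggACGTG
Cox6a2, chr1:192219717-192219836, minus strand: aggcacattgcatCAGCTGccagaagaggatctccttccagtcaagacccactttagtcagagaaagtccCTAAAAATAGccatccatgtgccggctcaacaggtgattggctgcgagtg
Cycs, chr4:80984828-80984947, minus strand: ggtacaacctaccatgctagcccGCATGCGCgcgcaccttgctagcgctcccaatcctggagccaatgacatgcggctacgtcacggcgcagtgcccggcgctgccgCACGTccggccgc
Atp5g3, chr3:79220665-79220784, minus strand: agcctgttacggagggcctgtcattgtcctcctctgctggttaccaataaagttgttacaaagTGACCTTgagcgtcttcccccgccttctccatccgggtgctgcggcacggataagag
Ndufa4l2, chr7:65242049-65242168, plus strand: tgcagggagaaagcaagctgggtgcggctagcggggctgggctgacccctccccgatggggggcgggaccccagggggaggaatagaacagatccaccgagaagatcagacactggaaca
Cox6b2, chr1:78122751-78122870, plus strand: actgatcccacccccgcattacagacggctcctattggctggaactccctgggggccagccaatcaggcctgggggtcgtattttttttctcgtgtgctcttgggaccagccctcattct

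Each stretch ends at the base before the start, except that of Cycs, which ends at −61. The Cox6a2 window overlaps the gene span that RefSeq gives, and the other 5 lie outside their gene's span. Counting the base before the start as −1, the E-boxes of Cox8b begin at −100 and −62 and its ACGTG at −5. Cox6a2 has its E-box at −107 and its MEF2 box at −50, Cycs its NRF1 core at −157 and its ACGTG match at −73, and Atp5g3 its receptor motif at −57.

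The NRF1 core was present in 12 of the 77 windows (15.6%), in 4.54% of the 5886 windows of listed ARVM genes and in 2.47% of all 33469 rat windows. The ETS motif CCGGAAG was present in 21 (27.3%), against 16.0% of listed and 8.75% of all windows, and the estrogen-related receptor motif in 10 (12.99%), against 2.91% and 4.61%. The E-box was present in 11 (14.3%), against 17.5% and 15.1%, and the hypoxia response core ACGTG in 21 (27.3%), against 24.7% and 19.3%. The full Cox8b window holds this core 3 times, the Atp5g3 window 2 times and the Cycs window 1 time. Neither the Ndufa4l2 nor the Cox6b2 window holds any of these motifs, which says only that these letters are absent from this stretch. The MEF2 box occurred in the Cox6a2 window alone among the 77, and in 0.102% of listed and 0.137% of all windows. A match of letters describes the window and does not show that a factor binds there.

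The windows also differed in CpG content, which tends to be higher in broadly used than in tissue-restricted promoters. The 77 windows held a median of 20 CpG, with a range from 5 to 40, the same median as the windows of all listed genes, while the median over all rat windows was 7. Only 6 held 10 or fewer, against 23.1% of the windows of listed genes. These were Cox6a2 and Cox8b with 5 each, Cox7b with 6, Ndufa4l2 with 8, and Cox6b2 and Ndufs4 with 10. Thus 3 of the genes with the most divergent changes, Cox8b, Ndufa4l2 and Cox6b2, were among the 6, together with 3 whose log2 fold changes of −1.98, −2.70 and −1.74 were in the common range. Cox4i2 and Cox6a1 have no window, and Ndufaf5, also called higher, has 21 CpG. This comparison was made after the values were seen and is given as a description.

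**Figure D5:**
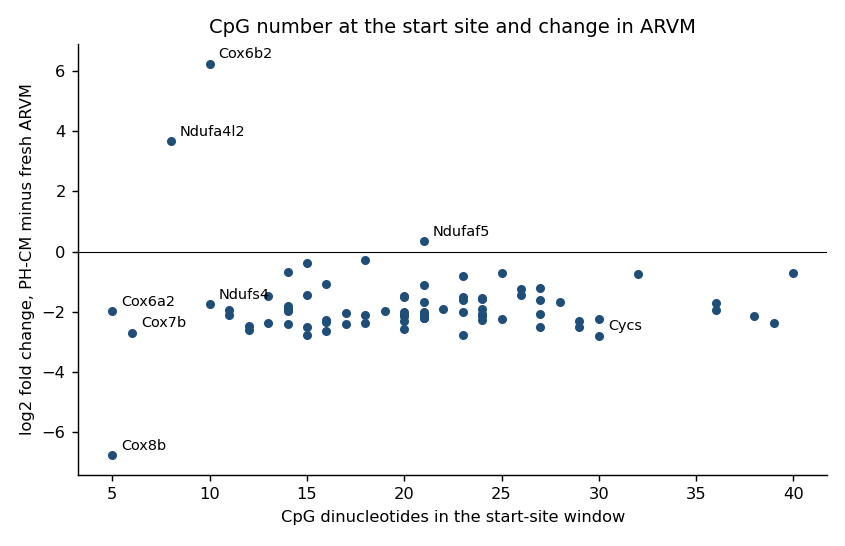
Each point is a listed ARVM gene with a RefSeq window (77 genes), placed by the number of CpG in its 300-base window (x) and its log2 fold change, PH-CM minus freshly isolated (y). Cox8b, Ndufa4l2 and Cox6b2 lie at 10 or fewer CpG, while Cox6a2, Cox7b and Ndufs4, also at 10 or fewer, lie near −2.

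Assembly factors, which help build the complexes without staying in them, fell less than the subunits. The median log2 fold change was −0.78 over the 14 genes for assembly factors and related proteins, against −2.07 over the 76 subunit and cytochrome c genes, and 5 of the 14 against 72 of the 76 fell by at least 1. The difference between these groups of genes is a description and was not tested. Ndufaf6, needed for early complex I assembly, had 536, 473 and 468 normalized counts in freshly isolated ARVM and 169, 129 and 88.9 in PH-CM ARVM (−1.97). Sdhaf3, a factor for the iron-sulfur subunit of complex II, had 228, 140.3 and 143 against 65.8, 83.7 and 60.1 (−1.25). Ndufaf4 had 2671, 2396 and 2295 against 1031, 1131 and 1042 (−1.20). The 5 complex IV factors ranged from −1.08 for Cox18, which inserts a mitochondrially made subunit into the membrane, to −0.37 for Cox7a2l, a factor that joins complexes into supercomplexes. The copper chaperone Cox17 lay between them (−0.69), as did Cox15, a haem A enzyme (−0.75), and Cox19 (−0.71). Ndufaf3, Atp5sl (Dmac2 in RefSeq) and Sdhaf2 had log2 fold changes of −0.82, −0.81 and −0.72, and Atp5s (Dmac2l in RefSeq) −1.67.

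Ndufaf5, which modifies a complex I core subunit during assembly, was the only assembly factor called higher. It had 378, 428 and 427 normalized counts in freshly isolated ARVM and 557, 522 and 484 in PH-CM ARVM (log2 fold change 0.34, adjusted p = 0.0151 from limma). Without the first PH-CM library the adjusted p was 0.0541. Ndufaf7, another enzyme that modifies complex I during assembly, had 845, 808 and 779 against 665, 758 and 611 (log2 fold change −0.26, adjusted p = 0.0305 from limma). That call was lost without the first (adjusted p = 0.0806 from limma) or the second (0.0682) freshly isolated library, and without the first (0.0798) or the third (0.0929) PH-CM library.

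Other genes of the pathway were taken as lists by function, chosen with earlier results of these data known. Those that are listed fell too, which is a description and not independent support. Over all listed genes 43.7% were called lower. Of 35 assembly factors whose symbols the rule does not take, 18 are listed and all 18 were called lower (median log2 fold change −1.01). Cox20, a complex IV factor, had 5414, 4420 and 4333 normalized counts against 1611, 1341 and 1405 (−1.70). Ecsit, a complex I factor, had a log2 fold change of −1.61, and Tmem70, needed for ATP synthase assembly, −1.31. Of 17 regulators of mitochondrial biogenesis, 8 are listed and all 8 were called lower, with a median of −0.80. Perm1, a muscle regulator of oxidative genes, had 2352, 2431 and 2175 normalized counts in freshly isolated ARVM and 569, 685 and 498 in PH-CM ARVM (log2 fold change −1.998). Ppargc1a, the coactivator known as a master regulator of mitochondrial content, had 506, 483 and 555 against 268, 220.0 and 212 (−1.14), and the mitochondrial transcription factor gene Tfb2m had a log2 fold change of −0.93. None of the 13 protein genes of mitochondrial DNA is listed, so the mitochondrially encoded subunits were not analysed here. The same holds for 22 nuclear genes of the rule that RefSeq annotates in rat, among them Cox7a1, Cox8a, Cox6b1, Ndufs6, Ndufa13 and Atp5if1.

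Markers of other cell types moved with the groups. For comparison, 43.7% of all listed genes were called lower and 53.9% higher. All 12 cardiomyocyte markers are listed, 11 called lower and Myh7 higher. Their median log2 fold change was −2.77, and their summed counts went from between 1834100 and 1864640 to between 206732 and 256266. None of the 12 was at 0 in all libraries of a group. All 10 fibroblast markers were called higher, their sum going from between 4595 and 5678 to between 112406 and 160769. The 8 endothelial markers were called lower (sum 9312 to 10804 before, 3585 to 4323 after), and of 7 smooth muscle and pericyte markers 5 were higher and 2 lower (3690 to 4313 before, 31348 to 49756 after). Of the 8 leukocyte markers 7 are listed, 6 higher and 1 lower (6756 to 6968 before, 6827 to 10092 after). Nearly all of their sum before came from Cd74, which went from 6778, 6737 and 6559 to 523, 424 and 401, while Lyz2 went from 55.4, 26.8 and 40.3 to 5906, 5075 and 7730, and the median log2 fold change of the 7 was 3.795. Of the 6 erythroid markers 4 are listed and lower, with Hbb, Hbb-b1 and Hba1 at 0 in every PH-CM library. The part of these shifts in the lower oxidative phosphorylation genes was not tested. The first PH-CM library had the highest PH-CM value in 71 of the 90 genes. The first freshly isolated library had the highest freshly isolated value in 53 of them. With any library left out between 85 and 86 genes were called lower. Listed genes were selected for a difference, so these counts say little about that imbalance.

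The Cfib comparison asks how the fibroblasts that make the medium differ between PH and CO calves, and it lists only 2 genes of the chain. NDUFAF7 had values of 12.9, 12.9 and 15.0 in CO Cfib and 9.15, 9.30 and 9.41 in PH Cfib. It was called lower (log2 fold change −0.50, standard error 0.08, adjusted p = 0.00131 from limma). Over the alternatives tried, the log2 fold change of NDUFAF7 ran from −0.77 to −0.29. SDHA had 148, 151 and 183 in CO Cfib and 110.4, 115 and 113 in PH Cfib, and was also called lower (log2 fold change −0.50, standard error 0.09, adjusted p = 0.00234 from limma). Over all listed Cfib genes 39.4% were called lower, and the median log2 fold change was 0.33. The third CO Cfib library was the highest for both genes, and without it the log2 fold changes were −0.43 and −0.40. Rescaling by the median of ratios shifted the log2 fold changes of listed genes by a median of −0.27, turned the split of calls from 833 lower and 1230 higher into 869 lower and 840 higher, and gave −0.77 for NDUFAF7 and −0.78 for SDHA.

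The PH Cfib libraries differed little from each other, with correlations of 0.997 to 0.998 across genes. When they were averaged into 1 sample, the log2 fold changes stayed at −0.50 for both genes, while the adjusted p was 0.0656 for NDUFAF7 and 0.0726 for SDHA (limma) and neither was called. That setting leaves 1 sample in the PH group, which is assumed to vary as the CO libraries do. No other subunit, assembly factor of the rule or mitochondrially encoded gene is listed for Cfib, and of the 35 other assembly factors only FASTKD5 is, with a log2 fold change of −0.17 that was not called (adjusted p = 0.0623 from limma). None of the 17 biogenesis regulators is listed. Of the fibroblast markers 3 of 10 are listed, all higher in PH (sum 2214 to 3119 in CO, 7229 to 7556 in PH), and no cardiomyocyte or erythroid marker is. Of the endothelial markers 1 of 8 is listed and lower, 5 of 7 smooth muscle and pericyte markers are listed, 4 higher and 1 lower, and 2 of 8 leukocyte markers are listed and higher. The part of these markers in the 2 results was not tested. In ARVM the rat genes Sdha and Ndufaf7 were lower after PH-CM, by −2.11 and −0.26 on the log2 scale. There 86 of the 90 listed genes were called lower, so a shared direction says little. The Ndufaf7 call was also lost in some fits with a library left out. This sets Cfib beside other cells of another species under another contrast.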

How the data were processed

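RNA of 12 libraries was isolated, depleted of ribosomal RNA and sequenced on a HiSeq4000 by the authors. The submitters' processing notes name HISAT2, StringTie and DESeq2 with the builds rn6 and bosTau8. The authors deposited, as a signal per gene and library, only genes chosen at a p-value under their cutoff. The deposited ARVM signal is reads divided by 1 size factor per library, and 100% of values were whole reads within 0.01 reads. The deposited Cfib signal is scaled by gene length and library, in a unit not given in the sources used here.

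Libraries were grouped by their source labels (control or high altitude), and the groups were named after these labels and the authors' description. On log2(value + 1), groups were compared by limma 3.58.1 in R 4.3.3 (eBayes with trend). P-values were adjusted by Benjamini-Hochberg over all listed genes, with 0.05 as the threshold. Isoform ratios were compared by an exact permutation test (scipy 1.17.1, Python 3.11.15). No filter on low values was added. Alternatives were edgeR 4.0.16 and DESeq2 1.42.0 on recovered reads (edgeR with the authors' size factors was chosen after seeing the data), pseudocounts of 0.1 and 10, minimum means of 50 (ARVM) and 5 (Cfib), median-of-ratios scaling, a log2 fold change of at least 1, averaged PH Cfib libraries, a replicate block and each library left out. The models were tested on simulated data. Replicates of a group differed by more than sampling noise (chi-square per gene 11.2 to 38.4 between ARVM libraries).

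Values of every library are given for isoform pairs, for up to 3 members with the largest fall and up to 3 with the largest rise per complex and among assembly factors, for members that went against their complex, and for some of the largest changes of other lists. Other genes were named after their values were seen. The members and lists were chosen with earlier results of these data known. A further item is not reported here by name.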

Additional observations from a re-analysis of the deposited data

How the results depend on the processing

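In ARVM the count of oxidative phosphorylation genes called lower was 86 under both pseudocounts, the minimum mean, median-of-ratios scaling, edgeR with TMM or with the authors' size factors, and DESeq2, 77 with a log2 fold change of at least 1, and 85 to 86 with each library left out. The count called higher was 4, with 3 at a log2 fold change of at least 1 and 3 to 4 with each library left out. No log2 fold change of a gene reversed. Since the groups of listed genes do not overlap, only rescaling or a count model could have reversed a direction. Another constant, a filter, a block, averaging or a left-out library could not. Of 1286 single-gene values 19 lost their call, 10 ARVM and 2 Cfib genes of them at the minimum log2 fold change of 1. With each library left out, the isoform log2 ratio difference ran from −1.62 to −1.50 for Cox6a2 to Cox6a1, from 3.48 to 3.86 for Cox4i2 to Cox4i1 and from 6.06 to 6.54 for Ndufa4l2 to Ndufa4. In Cfib the count called lower was 2 with each library left out, and 0 both at the minimum log2 fold change, a size neither gene reaches, and with the PH libraries averaged, which leaves 1 PH sample and did not move the log2 fold changes. At that last setting both genes had an unadjusted p under 0.05 from limma, and no count test was run on Cfib, whose values are not reads.

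With a replicate block on the library number, 2 Cfib genes were again called lower. Libraries with the same number deviated from their group means with correlations of 0.258, 0.0312 and 0.259, so the numbers were not taken to pair the samples. The ARVM groups share no library numbers. Both tables hold selected genes only, so p-values are adjusted over selected genes. Fresh ARVM and PH-CM ARVM differ in time in culture as well as medium, and no sample separates these. The 7 reads of Cox6b2 in freshly isolated ARVM limit the precision of its change.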
